A study of Mus musculus with 9 samples.

Results

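Bin2, Plbd1, Fam174b and Gjb1 are 4 genes of 52183 in a table of messenger RNA levels of endothelial cells sorted from mouse bone marrow. They were picked from these same data because their level was raised in control mice aged 18 months and less raised, or not raised, in mice of that age labelled as Thbs1 knockouts. Their group differences are therefore given as descriptions, with no test. The study has 9 libraries in 3 groups of 3: mice aged 18 months labelled Aged Thbs1 knockout (TSPKO), control mice aged 18 months, and control mice aged 3 months. Every mouse, controls included, received an antibody to VE-cadherin, a protein of endothelial junctions, shortly before death, and the cells were isolated by flow cytometry from the long bones. The labels give neither the strain nor the altered part of Thbs1. Nothing in them tells whether the 3 libraries of a group are 3 mice, so p-values measure only the spread between these libraries, which may be technical. Levels are FPKM, fragments scaled by gene length and library depth, as deposited by the authors. Differences are in log2(FPKM + 1) units, and the added 1 shrinks those of weakly expressed genes.

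Bin2 encodes a protein with an N-BAR domain, a fold that binds and bends membranes, and is known mainly from leukocytes and platelets. Plbd1 encodes a phospholipase B-like protein of the lysosome, the compartment in which cells break down internalised material, and its human counterpart was found in neutrophils. Fam174b encodes a small membrane protein whose role is little described. Gjb1 encodes connexin 32, a gap junction protein best known from hepatocytes and from the Schwann cells of nerves. The sinusoidal vessels of the marrow take up material from the blood and degrade it in lysosomes. Lysosomal, scavenger and gap junction genes were described beside the 4 genes, in lists chosen with earlier results of these data known.

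The recovered depth ran from 27330000 to 30260000 fragments in the libraries labelled knockout, from 22030000 to 24480000 in the aged controls and from 22810000 to 23750000 in the young controls. The libraries listed 21844 to 24564, 20728 to 22119 and 25153 to 26391 genes above 0, in the same order of groups. Thbs1, the targeted gene, went against its label: it stood at 19.45 to 25.63 FPKM in libraries labelled knockout, 0.67 to 1.17 FPKM in aged controls and 3.89 to 4.55 FPKM in young controls. Every direction drawn from that group therefore refers to the libraries labelled knockout and not to a shown loss of Thbs1. The pan-endothelial genes of the marker list were present in all groups, with Cdh5, the gene of VE-cadherin, at 153.15 to 176.54 FPKM. Replicate 2 labelled knockout stood apart from replicates 1 and 3 of its group in all 4 genes, and values are given with and without it.

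The 4 genes lie on different chromosomes of GRCm38: Bin2 (ENSMUSG00000098112) on the minus strand of chromosome 15 from 100641077 to 100669553, Plbd1 (ENSMUSG00000030214) on the minus strand of chromosome 6 from 136612070 to 136661928, Fam174b (ENSMUSG00000078670) on the plus strand of chromosome 7 from 73740302 to 73776919, and Gjb1 (ENSMUSG00000047797) on the plus strand of chromosome X from 101376378 to 101385629. All are protein coding, and none lies on chromosome 2, which carries Thbs1. A predicted transcript on the opposite strand, A830073O21Rik, shares 527 exon bases with Fam174b, and its own level was at most 0.11 FPKM. Reads of the shared stretch cannot be assigned to a strand, since the strand setting of the counting is not given in the sources used here. The RefSeq promoter table (GRCm38.p6, 250 bases before to 50 after a start) matched 3 of the 4 genes, Plbd1, Fam174b and Gjb1, with 4 starts for Gjb1. Their windows are shown as descriptions. The choice of the genes fixes in part that they moved together over the libraries, so that movement is no ground to expect shared letters. Capitals mark matches on either strand to 6 motifs. They are the E-box CACGTG, the ETS factor core GGAAGT, the GATA factor site AGATAA, the Krüppel-like factor site CCACACCC, the GC box GGGCGG and the AP-1 site TGAGTCA.
Plbd1, minus strand, chr6:136661844-136662143: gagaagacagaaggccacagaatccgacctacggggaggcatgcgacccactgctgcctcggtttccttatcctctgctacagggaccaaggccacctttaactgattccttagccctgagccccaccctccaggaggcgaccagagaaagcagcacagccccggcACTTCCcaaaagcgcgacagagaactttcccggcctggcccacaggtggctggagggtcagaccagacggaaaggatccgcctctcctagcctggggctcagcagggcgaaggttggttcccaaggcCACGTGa
Fam174b, plus strand, chr7:73740057-73740356: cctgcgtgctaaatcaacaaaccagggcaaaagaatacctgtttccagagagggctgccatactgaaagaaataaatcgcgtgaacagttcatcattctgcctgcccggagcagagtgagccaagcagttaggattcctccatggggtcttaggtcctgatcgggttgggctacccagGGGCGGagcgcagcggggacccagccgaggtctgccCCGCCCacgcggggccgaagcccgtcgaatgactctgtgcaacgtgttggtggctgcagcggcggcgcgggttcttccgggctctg
Gjb1, plus strand, the last of 4 listed starts, chrX:101383482-101383781: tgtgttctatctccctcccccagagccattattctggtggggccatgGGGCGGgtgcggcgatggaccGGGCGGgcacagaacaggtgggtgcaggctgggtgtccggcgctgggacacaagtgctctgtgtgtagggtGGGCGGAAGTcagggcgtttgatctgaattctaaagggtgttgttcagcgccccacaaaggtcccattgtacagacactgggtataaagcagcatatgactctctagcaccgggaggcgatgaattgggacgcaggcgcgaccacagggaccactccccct

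No searched motif was common to the windows of all 3 genes. GGGCGG occurred in Fam174b and in the last Gjb1 window, and 35.7% of the 32851 windows of the table hold it. GGAAGT occurred in Plbd1 and in the last Gjb1 window, where its letters overlap a GC box, against 23.8% of all windows. Plbd1 alone held CACGTG, the letters bound by E-box factors and part of the motif known from lysosomal genes, 44 bases after the start, against 7.2% of all windows. The other 3 Gjb1 windows held none of the 6 motifs, and the values per gene do not show which start was used. A match describes these letters and not a bound site.

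Bin2 showed the widest gap between the libraries labelled knockout and the aged controls. It stood at 1.79, 7.37 and 2.54 FPKM in libraries labelled knockout, 23.17, 18.90 and 17.25 FPKM in aged controls and 5.08, 4.81 and 5.89 FPKM in young controls. The aged controls lay above every other library, and replicates 1 and 3 labelled knockout lay below all young controls. Means were 3.90 ± 3.03, 19.8 ± 3.06 and 5.26 ± 0.562 FPKM in that order of groups (SD, n = 3 each). On the log2 scale the libraries labelled knockout were 2.24 below the aged controls (log2 difference -2.24), and the aged controls were 1.72 above the young controls, with a mean 3.76 times the young mean. In bulk RNA, for all values given, fewer cells of a kind and less RNA per cell cannot be told apart.

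Plbd1 showed the largest difference between aged and young controls of the 4 genes. Its level was 1.06, 8.38 and 1.34 FPKM in libraries labelled knockout, 8.14, 11.60 and 11.23 FPKM in aged controls and 1.88, 1.33 and 2.27 FPKM in young controls. The aged controls did not overlap the young controls, but replicate 2 labelled knockout lay within the range of the aged controls while replicates 1 and 3 lay within or below the young range. Means were 3.59 ± 4.15, 10.3 ± 1.90 and 1.83 ± 0.472 FPKM (SD, n = 3 each), so the spread of the libraries labelled knockout exceeded their mean. The log2 difference was -1.65 for labelled knockout minus aged control and 2.00 for aged minus young control, and the aged mean was 5.65 times the young mean.

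Fam174b had the highest level of the 4 genes in each group. It stood at 8.38, 17.25 and 8.76 FPKM in libraries labelled knockout, 27.26, 20.76 and 26.46 FPKM in aged controls and 7.32, 6.88 and 7.69 FPKM in young controls. The 3 groups did not overlap, and it was the only one of the 4 genes for which every library labelled knockout lay above every young control, as 8.46% of the 11796 tested genes did. Its group means (SD, n = 3 each) were 11.5 ± 5.02, 24.8 ± 3.54 and 7.30 ± 0.406 FPKM. The log2 difference was -1.11 for labelled knockout minus aged control, 1.63 for aged minus young control and 0.52 for labelled knockout minus young control.

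Gjb1 had the lowest level and the widest relative spread among the aged controls. Its values were 0.94, 2.99 and 0.56 FPKM in libraries labelled knockout, 4.49, 8.41 and 3.96 FPKM in aged controls and 1.64, 1.49 and 0.66 FPKM in young controls. The aged controls lay above all other libraries, and the libraries labelled knockout overlapped the young controls. Group means (SD, n = 3 each) were 1.497 ± 1.31, 5.62 ± 2.43 and 1.26 ± 0.528 FPKM. The log2 difference was -1.47 for labelled knockout minus aged control, 1.52 for aged minus young control and 0.05 for labelled knockout minus young control. The Gjb1 values rest on an estimated 26 to 327 fragments a library, against 78 to 724 for Plbd1, 127 to 1291 for Bin2 and 512 to 2113 for Fam174b.

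**Figure D1:**
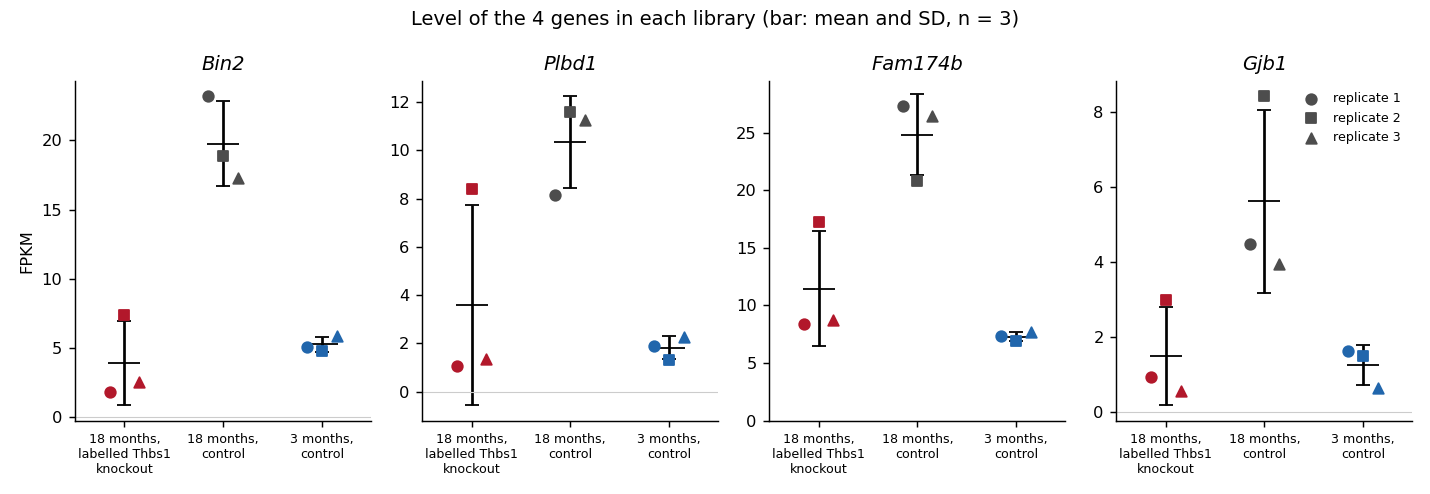
FPKM of Bin2, Plbd1, Fam174b and Gjb1 in each of the 9 libraries, grouped as 18 months labelled Thbs1 knockout, 18 months control and 3 months control; symbols are replicates and bars are the mean and SD of 3 libraries. The aged control mean is the highest in all 4 panels, and replicate 2 labelled knockout (square) lies above replicates 1 and 3 of its group, within the aged range for Plbd1 at 8.38 FPKM.

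All 4 genes had every aged control above every young control, and 3 of the 4, all but Plbd1, had every library labelled knockout below every aged control. Of those 11796 genes, which averaged 1 FPKM or more, 13.9% had every aged control above every young control and 11.1% had every library labelled knockout below every aged control. The members were picked for this pattern, so nothing is read from their count. In the level order among the tested genes, Gjb1 was above 10.9% of them in the libraries labelled knockout, above 45.5% in the aged controls and above 5.4% in the young controls. The same position was 34.5%, 76.9% and 41.9% for Bin2, 32.3%, 61.7% and 13.8% for Plbd1, and 64.2%, 81.1% and 51.2% for Fam174b. In each group Fam174b stood highest per length and Gjb1 lowest, with Bin2 next below Fam174b and Plbd1 between Bin2 and Gjb1. The ranges of Fam174b and Bin2 overlapped in the aged controls, those of Bin2 and Plbd1 overlapped in the libraries labelled knockout, and those of Plbd1 and Gjb1 overlapped there, in the aged controls and in the young controls.

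The libraries labelled knockout were not alike in these genes. Set between the young mean (0%) and the aged mean (100%) on the log2 scale, replicate 2 lay at 24.5% for Bin2, 55.8% for Gjb1, 69.9% for Fam174b and 87.2% for Plbd1. Replicate 1 lay at -67.4%, -12.7%, 10.9% and -22.1% for the same genes, and replicate 3 at -47.5%, -33.5%, 14.4% and -12.9%. Replicate 2 was thus above the young mean in all 4 genes, while the other 2 replicates were below it in Bin2, Gjb1 and Plbd1. Its level was 6.98 times the mean of replicates 1 and 3 for Plbd1, 3.99 times for Gjb1, 3.40 times for Bin2 and 2.01 times for Fam174b. Without replicate 2, the log2 difference of labelled knockout minus young control was -0.99 for Bin2, -0.35 for Plbd1, -0.35 for Gjb1 and 0.21 for Fam174b, against -0.52, 0.35, 0.05 and 0.52 with it. The sign for Plbd1 and Gjb1 in that comparison thus turned with 1 library, and the difference from the aged controls widened to -2.72 for Bin2, -2.35 for Plbd1, -1.87 for Gjb1 and -1.42 for Fam174b.

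**Figure D2:**
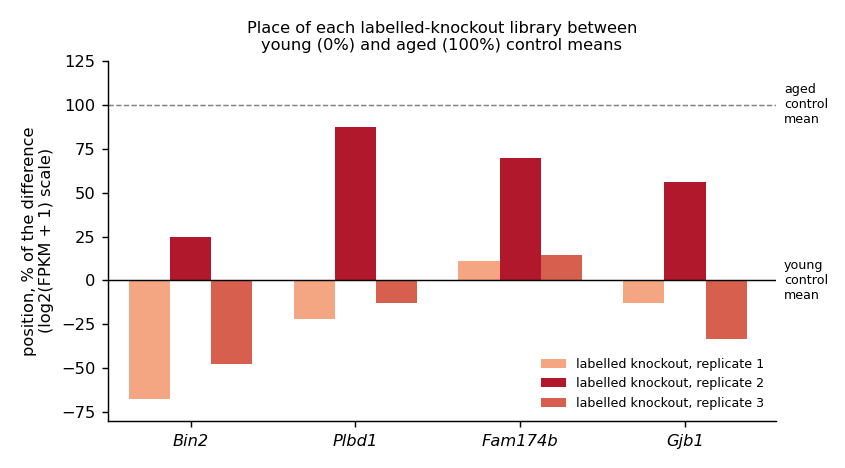
Place of each library labelled knockout on a scale from the young control mean (0%) to the aged control mean (100%) of log2(FPKM + 1), for the 4 genes; each bar is 1 library. Replicate 2 runs from 24.5% (Bin2) to 87.2% (Plbd1), while replicates 1 and 3 lie between -67.4% and 14.4%.

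Across the 9 libraries the 4 genes followed each other, which the choice of members fixes in part because the libraries fall into groups. Pearson r of log2(FPKM + 1) ran from 0.843 (Fam174b and Gjb1) to 0.940 (Plbd1 and Fam174b) over the 6 pairs, with a median of 0.889, and Spearman rho ran from 0.650 to 0.883. Without the 2 libraries farthest from the median of the first gene of a pair, r was 0.766 to 0.913. These values are descriptions with no p, and the 9 points share library preparation and depth. Within groups, where the pattern used for the choice is removed, the deviations from the group means had r of 0.922 for Bin2 and Fam174b, 0.895 for Bin2 and Plbd1, 0.866 for Plbd1 and Fam174b, and 0.455 to 0.686 for the 3 pairs with Gjb1. The median of those 6 values was 0.776. Without replicate 2 labelled knockout it was -0.136, with a range of -0.883 to 0.409, so the shared movement within groups rested on that library. Among the aged controls, for example, Gjb1 was highest in replicate 2, where Bin2 was not highest and Fam174b was lowest.

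**Figure D3:**
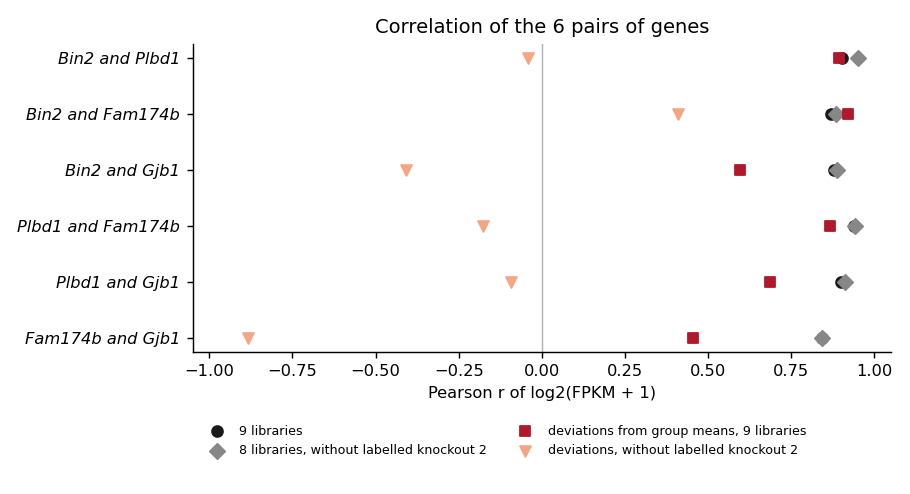
Pearson r of log2(FPKM + 1) for the 6 pairs of genes, over 9 libraries (circles), without replicate 2 labelled knockout (diamonds), for deviations from group means (squares) and for those deviations without that library (triangles). The r over the groups stays between 0.841 and 0.950, while the deviations fall to a median of -0.136 once replicate 2 labelled knockout is left out.

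Among the 6940 other genes that averaged 5 FPKM or more, 167 (2.41%) had r of at least 0.9 with the mean standardized profile of the 4 genes, and 176 (2.54%) had r of -0.9 or below. Taken singly, r of at least 0.9 was reached by 194 genes for Fam174b, 175 for Bin2, 115 for Plbd1 and 41 for Gjb1, and 7 genes reached it with all 4. The genes most like Bin2 were Lgals1, a galectin (r = 0.988), Sectm1a (0.985), the lysosomal membrane gene Lamp1 (0.978), the globin Cygb (0.978) and Dtnbp1 (0.975). The genes most like Plbd1 were Il18bp, which encodes the binding protein of interleukin 18 (0.976), Vstm4 (0.970), the lysosomal hexosaminidase Hexa (0.970), the class II loading gene H2-DMb1 (0.969) and Smim14 (0.967). Those most like Fam174b were the ribosomal protein gene Rpl13 (0.987), the folding enzyme gene Fkbp2 (0.980), Atp6v0b, a subunit of the proton pump of lysosomes (0.980), Slc43a3 (0.980) and Tmem150a (0.979). Those most like Gjb1 were the lysosomal protease legumain, Lgmn (0.992), Dmpk (0.980), the stress transcription factor Xbp1 (0.977), Npl (0.976) and Crybb3 (0.974). The 4 lists of 5 genes had no name in common.

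Lgmn, the closest gene to Gjb1, was far more abundant. It stood at 693.55, 972.58 and 674.40 FPKM in libraries labelled knockout, 1105.78, 1251.75 and 1024.51 FPKM in aged controls and 804.45, 759.21 and 660.89 FPKM in young controls, so that it followed Gjb1 down to replicate 2 as the highest aged control and replicate 3 as the lowest young control. For the mean profile of the 4 genes the closest were Cygb (r = 0.989), the tetraspanin Tspan7 (0.986), the water channel Aqp1 (0.984), Il18bp (0.981), Hexa (0.980), the complement receptor C5ar1 (0.979), the nuclease Dnase1l3 (0.979), Uap1l1 (0.977), the lysosomal protease cathepsin B, Ctsb (0.977), and Derl1 (0.975). Aqp1 stood at 322.97, 781.37 and 334.73 FPKM in libraries labelled knockout, 1049.83, 1300.73 and 953.04 FPKM in aged controls and 349.88, 447.95 and 399.51 FPKM in young controls, with replicate 2 labelled knockout between the other libraries of its group and the aged controls, as for Bin2, Fam174b and Gjb1. Lgmn and Aqp1 were picked by r over these same libraries, which fixes such shared orders in part.

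**Figure D4:**
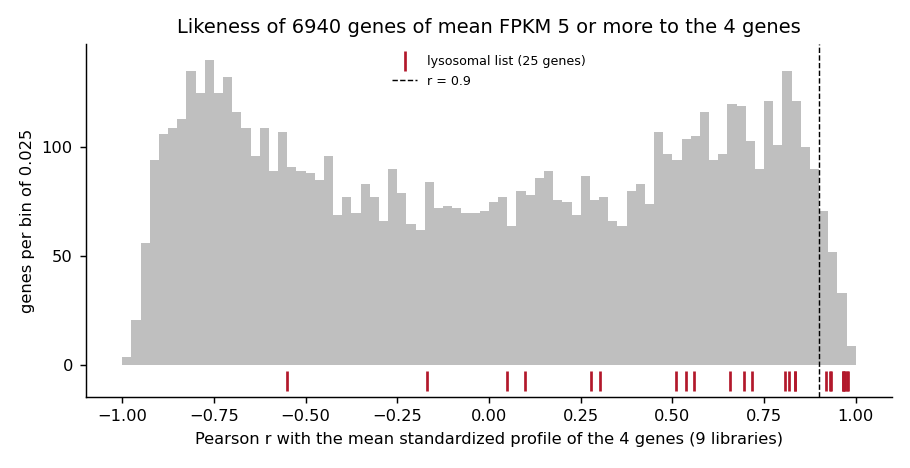
Number of genes by Pearson r with the mean standardized profile of the 4 genes over 9 libraries, for 6940 other genes averaging 5 FPKM or more; red ticks are the 25 lysosomal genes of the list among them, and the dashed line marks r = 0.9. Of all genes 167 lie at or beyond the line, and 9 of the 25 lysosomal genes do. The lysosomal list was chosen with earlier results of these data known.

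By the log2 difference of aged minus young control, Plbd1, Bin2, Fam174b and Gjb1 ranked 2, 6, 9 and 11 among 1185 named genes with at least 5 FPKM in the aged controls and no overlap with the young controls. The 4 genes were picked for a rise in the aged controls, so nothing is read from these ranks. Cygb came first with a log2 difference of 2.04. Between the 4 genes stood H2-DMb1, Mgp, Reg3g, Sgpp2, C5ar1 and Lgals1, with log2 differences from 1.55 to 1.91, and just after Gjb1 at 1.52 came H2-Ab1 at 1.51, Msr1 at 1.49 and Aqp1 at 1.46. These steps between neighbours are smaller than the pooled SD of the 4 genes between libraries of a group, 0.336 to 0.730 on the same scale. Of the 1185 genes, 546 (46.1%) had every library labelled knockout below every aged control, as Bin2, Fam174b and Gjb1 did and Plbd1 did not. The 1185 genes were chosen for high values in the same aged controls, which fixes this share in part. Among all 11796 tested genes the share was 11.1%.

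Most relatives of the 4 genes were not called, which also holds for most of all tested genes. Of the 22 other connexins and pannexins, 6 passed the filter of 1 FPKM. Gja1, which encodes connexin 43, was higher in the libraries labelled knockout than in the aged controls, with means of 88.0 ± 12.1 and 56.8 ± 3.37 FPKM (SD, n = 3 each, log2 difference 0.62 ± 0.116 SE, limma adjusted p = 0.0201). It was the only one of them called in that comparison, in which 4.79% of the 11796 genes were called, and none was called for aged against young controls, in which 3.99% were. Gja4, the arterial connexin 37, stood at 24.96 ± 11.5 FPKM in the aged controls and 11.9 ± 1.16 FPKM in the young controls (adjusted p = 0.0734), and Gjc1 at 0.263 ± 0.277 and 1.30 ± 0.160 FPKM (adjusted p = 0.0778). Gjb2, another beta connexin gene, stood at 1.69 ± 0.340 and 1.43 ± 0.902 FPKM in the same groups (adjusted p = 0.625). When 1 library was left out in turn, Gja1 lost its call in 2 of 9 fits.

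Of the 10 other N-BAR genes, 7 passed the filter and none was called in any of the 3 comparisons by limma. Of all 11796 tested genes, 3.99% were called for aged against young control and 4.79% for labelled knockout against aged control. For labelled knockout against young control 0.212% were called. In that order of comparisons 3, 4 and 0 of the 7 N-BAR genes had an unadjusted p under 0.05. The share of all tested genes at that unadjusted level was not counted, so nothing is read from such counts. Bin1, an amphiphysin relative, stood at 15.8 ± 0.905 FPKM in libraries labelled knockout, 19.5 ± 2.15 FPKM in the aged controls and 18.1 ± 0.653 FPKM in the young controls, and Bin3 at 22.3 ± 2.30, 22.3 ± 1.30 and 21.95 ± 1.96 FPKM. Fam174a and Fam174c were not called either, with 2, 0 and 1 of the 2 genes at an unadjusted p under 0.05 in the same order of comparisons. Fam174c stood at 6.74 ± 1.43, 5.82 ± 0.6995 and 3.41 ± 1.23 FPKM in libraries labelled knockout, the aged controls and the young controls. Unlike Fam174b, its mean was not lower in the libraries labelled knockout than in the aged controls (log2 difference 0.17 ± 0.202 SE, adjusted p = 0.642). Plbd2, the relative of Plbd1, stood at 13.3 ± 1.34, 16.02 ± 4.55 and 12.7 ± 1.07 FPKM (adjusted p = 0.463 for labelled knockout against aged control and 0.300 for aged against young control).

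The called genes of the lysosomal list, to which Plbd1 belongs, changed in the direction of the 4 genes. Of its 26 other members, all of which passed the filter, 5 rose and none fell in the aged against the young controls, and 23 had a log2 difference above 0. The median of the list was 0.24, against -0.05 over all tested genes, of which 1.2% rose and 2.8% fell. In the libraries labelled knockout against the aged controls 5 of the 26 fell and none rose, with a median of -0.22 against 0.00 over all tested genes, of which 2.01% fell and 2.78% rose. Both comparisons use the same aged controls, so their counts are not independent. The list was chosen with earlier results of these data known, so its counts and medians are descriptions and no independent support. No member was called for labelled knockout against young control, in which 0.212% of genes were called and 0.0848% were called higher, and none had an unadjusted p under 0.05.

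Ctsd, the aspartic protease cathepsin D, stood at 178.39, 246.23 and 202.35 FPKM in libraries labelled knockout, 336.78, 338.32 and 317.94 FPKM in aged controls and 180.20, 200.28 and 194.86 FPKM in young controls. The aged controls lay above all other libraries, and replicate 2 labelled knockout again lay between. Ctsd fell in the libraries labelled knockout (log2 difference -0.67 ± 0.118 SE, limma adjusted p = 0.0143) and rose in the aged controls over the young controls (0.79 ± 0.118, adjusted p = 0.0168). Hexa averaged 67.7 ± 14.8 FPKM in libraries labelled knockout, 99.3 ± 2.95 FPKM in aged and 63.6 ± 2.81 FPKM in young controls. It fell in the first against the second (adjusted p = 0.0472) and rose in aged over young controls (adjusted p = 0.0402). The proteases Ctsh (-0.84, adjusted p = 0.0194) and Ctsz (-0.50, adjusted p = 0.0495) and the lysosomal phospholipase Pla2g15 (-0.85, adjusted p = 0.0389) also fell in the libraries labelled knockout. In the aged over the young controls Ctsh (0.76, adjusted p = 0.0381), Ctsz (0.58, adjusted p = 0.0382) and Ctsb (0.58, adjusted p = 0.0435) rose. Without 1 library in turn, the Hexa call for labelled knockout against aged control was lost in 8 of 9 fits. In that comparison Ctsz and Pla2g15 lost theirs in 7, Ctsh in 2 and Ctsd in 1. For aged against young control Hexa and Ctsb lost theirs in 7, Ctsh and Ctsz in 6 and Ctsd in 3. After quantile scaling Hexa lost both calls, Ctsz the first and Ctsb the second. Lgmn, the gene most like Gjb1, missed the threshold for labelled knockout against aged control (adjusted p = 0.0734) and for aged against young control (adjusted p = 0.0586).

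These list counts depended on single libraries. The count of lysosomal genes that rose in the aged controls was 0 without young control replicate 1, 2 or 3, fits in which 0.0424%, 0.263% and 0.102% of all tested genes were called in either direction. It was 2 without aged control replicate 1, 2 or 3, with 2.66%, 2.14% and 1.07% of all genes called. Without replicate 1, 2 or 3 labelled knockout it was 5, 8 and 1, with 5.14%, 8.81% and 0.975% called. The count that fell in the libraries labelled knockout was 1, 11 and 0 without replicate 1, 2 or 3 labelled knockout, with 1.67%, 9.83% and 1.9% of all genes called. It was 4, 3 and 2 without aged control replicate 1, 2 or 3, with 3.33%, 4.26% and 3.74% called, and 2 without young control replicate 1, 2 or 3, with 2.65%, 2.55% and 2.4% called. In both comparisons the highest list count came from the fit with the highest share of all genes called. The median of the list kept its direction in these fits, from 0.21 to 0.27 and from -0.32 to -0.17. In promoters, 7 of the 20 other lysosomal genes with a window in the RefSeq table held CACGTG (35.0%), the motif found in Plbd1, against 8.1% of all genes. GGGCGG, found in Fam174b and Gjb1, was held by 16 of those 20 genes, against 38.2% of all genes. GGAAGT, found in Plbd1 and Gjb1, was held by 6 of the 20 (30.0%), against 26.5% of all genes. Of 8 sinusoidal genes with a window, 0 held CACGTG, 3 held GGGCGG and 3 held GGAAGT. Both lists were chosen with earlier results of these data known, so these shares are descriptions.

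**Figure D5:**
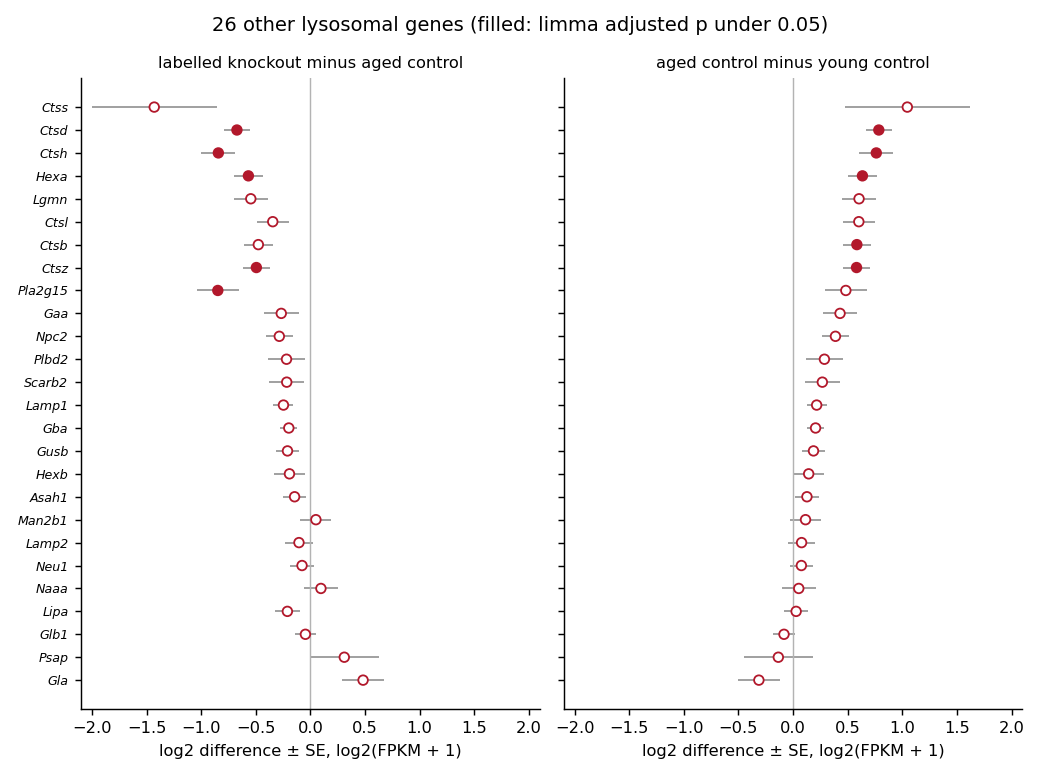
Log2 difference (± SE) of 26 lysosomal genes other than Plbd1 for labelled knockout minus aged control (left) and aged control minus young control (right), ordered by the difference of aged minus young control; filled points passed the limma test at an adjusted p under 0.05. The median is -0.22 on the left and 0.24 on the right; both panels use the same 3 aged controls.

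Among endothelial markers, those most like the 4 genes belonged to different classes. In the sinusoidal list Dnase1l3 (r = 0.979 with the mean profile) and the inhibitory Fc receptor Fcgr2b (0.918) exceeded 0.9 of 12 genes averaging 5 FPKM or more, in the arterial list Mgp (0.953) and Ly6a (0.931) of 7, and in the pan-endothelial list the tight junction gene Cldn5 (0.974) of 15. Other members of these lists ran the opposite way, and the median r was 0.180 in the sinusoidal, -0.003 in the arterial and -0.612 in the pan-endothelial list, against -0.006 over all 6940 genes. The lowest were Vcam1 (-0.897) and Oit3 (-0.850) among the sinusoidal, Efnb2 (-0.778) among the arterial, and Fli1 (-0.893), Kdr (-0.848) and Sox7 (-0.840) among the pan-endothelial genes. Fcgr2b stood at 41.97, 180.85 and 47.76 FPKM in libraries labelled knockout, 316.01, 362.27 and 233.65 FPKM in aged controls and 99.92, 124.11 and 126.08 FPKM in young controls. Like Bin2, it was lower in replicates 1 and 3 labelled knockout than in every young control. The scavenger receptor genes Stab1 and Stab2, also sinusoidal, were not called in any comparison: Stab1 averaged 73.8 ± 1.77, 75.7 ± 8.26 and 72.6 ± 0.572 FPKM and Stab2 309.5 ± 62.3, 286.0 ± 17.5 and 318.8 ± 16.4 FPKM in libraries labelled knockout, the aged controls and the young controls (SD, n = 3 each). Of 12 tested sinusoidal genes 2 fell in the libraries labelled knockout against the aged controls, as 2.01% of all tested genes did. They were Fcgr2b (limma adjusted p = 0.0352) and Dnase1l3 (adjusted p = 0.0415), and each lost its call in 8 of the 9 fits without 1 library. None of the 12 was called for aged against young control by limma, in which 3.99% of all tested genes were called, and 8 had an unadjusted p under 0.05. Of the 15 pan-endothelial genes Cldn5 fell in the libraries labelled knockout (476.1 ± 81.3 FPKM, against 810.3 ± 49.6 FPKM in aged controls, adjusted p = 0.00897) and rose in aged controls over the 483.6 ± 20.0 FPKM of young controls (adjusted p = 0.0232). The transcription factor gene Sox7 rose in the libraries labelled knockout (log2 difference 0.82, adjusted p = 0.0065), and Erg fell in aged against young controls (-0.60, adjusted p = 0.0447). Of all tested genes 2.01% fell and 2.78% rose for labelled knockout against aged control. In aged against young controls 1.2% rose and 2.8% fell. Without 1 library in turn, the Erg call was lost in 6 of 9 fits and that of Cldn5 for aged against young control in 3, while the Cldn5 and Sox7 calls for labelled knockout against aged control were lost in 0. The Erg call was also lost after median-ratio scaling and after quantile scaling. No arterial gene of 11 tested was called by limma in any comparison. Of all tested genes 4.79% were called for labelled knockout against aged control and 3.99% for aged against young control. For labelled knockout against young control 0.212% were called. Beside such shares nothing is read from 0 calls among 11 genes. Unadjusted p was under 0.05 in 5 arterial genes for labelled knockout against aged control and in 3 for aged against young control. Nothing is read from the unadjusted counts, since the share of all tested genes at that level was not counted.

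Because Bin2 and Plbd1 are known from blood cells and Gjb1 from Schwann cells, markers of those cells were read beside them. Ptprc, the gene of CD45 on all leukocytes, ranged over 0.03 to 0.13 FPKM. The summed level of the 10 pan-leukocyte genes was 170.4 to 289.1 FPKM in libraries labelled knockout, 301.9 to 381.8 FPKM in the aged controls and 218.6 to 259.5 FPKM in the young controls, and most of it came from Fcer1g, at 153.69 to 338.22 FPKM, followed by Tyrobp. It was thus highest in the aged controls, like the 4 genes, and replicate 2 was the highest labelled knockout. All 8 tested genes of this list had a log2 difference below 0 for labelled knockout minus aged control (median -0.54) and above 0 for aged minus young control (median 0.46), the directions of the 4 genes. Over all tested genes the medians were 0.00 and -0.05, and the share with these signs was not counted. Both comparisons use the same aged controls, so these directions are not independent. Cd52 alone was called, higher in aged than young controls (limma adjusted p = 0.0435), as 1.2% of all tested genes were. The call was lost in 7 of 9 fits without 1 library. The part of leukocyte RNA in the levels of the 4 genes was not tested. For the 16 monocyte and macrophage genes, led by Lyz2 and Cd68, the sum was 28.3 to 70.6 FPKM, 65.5 to 89.7 FPKM and 41.7 to 101.3 FPKM in the same order of groups. Its highest value was in young control replicate 3, which was also the highest young control for Bin2 (5.89 FPKM) and Plbd1 (2.27 FPKM), both below every aged control. For the 14 neutrophil genes, led by S100a8 and S100a9, the sum was 35.1 to 121.7, 17.8 to 293.0 and 7.88 to 143.9 FPKM, and aged control replicate 1, which had the lowest sum of its group, was the lowest aged control for Plbd1 (8.14 FPKM) and the highest for Bin2 (23.17 FPKM). The part of monocyte and neutrophil RNA was not tested.

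The B-lineage and plasma cell sum, carried by the immunoglobulin genes Igkc and Ighm, was 4.84 to 1788 FPKM in libraries labelled knockout, 479.5 to 3019 FPKM in the aged controls and 7.13 to 518.2 FPKM in the young controls. Replicate 2 labelled knockout held the 1788 FPKM, so this sum moved with the 4 genes within its group. Igkc itself was at 0.87, 1618.47 and 500.08 FPKM in libraries labelled knockout, 2318.70, 1274.72 and 389.71 FPKM in aged controls and 6.08, 1.40 and 354.14 FPKM in young controls. Within each group Bin2 had the same order of libraries as Igkc. The Igkc means were 706.5 FPKM in libraries labelled knockout, 1328 FPKM in aged controls and 120.5 FPKM in young controls. The aged control mean was the highest, as for the 4 genes. Igkc was higher in replicate 3 labelled knockout than in aged control replicate 3, and Bin2 was at 2.54 and 17.25 FPKM in these. The deviations of Igkc from its group means had r of 0.548 with those of the mean profile of the 4 genes, and 0.867 without replicate 2 labelled knockout. Without that library the 4 genes did not follow each other within groups (median r of deviations -0.136), so nothing is read from the 0.867. The part of B-lineage RNA in the levels of the 4 genes was not tested. Of the 8 Schwann cell genes, 6 were under 1 FPKM in every library, with Sox10 at 0 throughout. Their summed level was 26.4 to 40.7, 32.8 to 41.0 and 26.8 to 33.6 FPKM in the same order of groups, nearly all of it from Pmp22, which other cells express too, with Mbp next. The T and NK cell genes were under 1 FPKM in every library for 8 of 10, with Cd8a at 0 and Lck at 11.34 to 16.07 FPKM, followed by Nkg7. Their sum was 12.0 to 18.3, 12.8 to 16.4 and 13.7 to 15.2 FPKM. The megakaryocyte and platelet sum, led by Pf4 and Ppbp, was 22.7 to 37.2, 25.3 to 37.6 and 26.8 to 30.2 FPKM, and the erythroid sum, led by Hbb-bs and Epor, was 101.0 to 223.9, 118.5 to 247.3 and 170.6 to 180.7 FPKM. The stromal, osteoblast and fat cell sum, led by Cxcl12 and Ibsp, was 50.8 to 65.7, 57.0 to 65.1 and 103.6 to 146.7 FPKM, highest in the young controls, where the 4 genes were not. Replicate 2 labelled knockout, the library of its group with the highest levels of the 4 genes, was also the highest of its group in the monocyte (70.6 FPKM), T and NK cell (18.3 FPKM), megakaryocyte and platelet (37.2 FPKM), erythroid (223.9 FPKM) and Schwann cell (40.7 FPKM) sums. In its group it was the lowest in the stromal sum (50.8 FPKM) and between the others in the neutrophil sum (113.8 FPKM). The part of these cells in the levels of the 4 genes was not tested. Several of the sums rest on a few genes. Under 1 FPKM in every library were 9 of 16 monocyte and macrophage genes and 6 of 13 B-lineage and plasma cell genes. The same held for 5 of 10 megakaryocyte and platelet genes. A sum is therefore no measure of the amount of a cell type.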

How the data were processed

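Messenger RNA was measured in 9 libraries, 3 per group, with groups and replicate numbers from the labels. The authors deposited FPKM rounded to 2 decimals for 52183 genes. The tools named in the submitters' processing notes are STAR, edgeR and FastQC 0.11.5, with GRCm38 and mm10 as builds; for counting rules and strand setting, the sources used here state nothing. All 52183 identifiers matched GENCODE M21. Depth was recovered from low values of genes of 60 to 400 bases, which came to whole fragments, with a tolerance of 0.1, in 99.5% to 99.8% of cases; fragments behind a value are estimates from it.

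Values were tested as log2(FPKM + 1) with limma 3.58.1 in R 4.3.3, with a mean per group over all 9 libraries and a trended eBayes with 6 residual degrees of freedom, in 11796 genes averaging 1 FPKM or more. P was adjusted by Benjamini-Hochberg, with a threshold of 0.05. The fit was tested on simulated data. Likeness is Pearson r over genes averaging 5 FPKM or more; among the most alike genes no antigen receptor, pseudogene, small RNA or predicted gene is named. Named genes were the 5 most like each gene, the 10 most and 5 least like the mean profile, the 10 most like it within groups, rank neighbours, called genes of related lists, leading endothelial markers and the 2 highest genes of each other list. Lgmn, Aqp1, Gja4, Gjc1, Gjb2, Bin1, Bin3, Stab1, Stab2, Vcam1, Oit3, Efnb2, Fli1, Kdr and the single libraries compared for Igkc were named with their values in view. The members and lists were chosen with earlier results of these data known. Alternatives were pseudocounts of 0.1 and 5, median-ratio and quantile scaling, no filter or a mean of 5 FPKM, the replicate number as a block, fits of 2 groups alone, and each library left out. Python 3.11.15 and matplotlib 3.10.9 drew the figures.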

Additional observations from a re-analysis of the deposited data

How the results depend on the processing

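The log2 differences of the 4 genes kept their direction for labelled knockout against aged control and for aged against young control in every alternative run. With a pseudocount of 0.1 the Gjb1 difference was -2.08 for labelled knockout minus aged control and 2.08 for aged minus young control. With a pseudocount of 5 it was -0.70 and 0.74, and Bin2 was at -1.52 for labelled knockout minus aged control, Plbd1 at 1.16 and Fam174b at 1.27 for aged minus young control. Leaving out 1 library gave -2.72 to -1.92 for Bin2, -2.35 to -1.26 for Plbd1, -1.42 to -0.94 for Fam174b and -1.87 to -1.19 for Gjb1 against the aged controls. It gave 1.61 to 1.81, 1.87 to 2.15, 1.56 to 1.75 and 1.23 to 1.70 for aged minus young control. Against the young controls the libraries labelled knockout ran from -0.99 to -0.20 for Bin2, -0.35 to 0.74 for Plbd1, 0.21 to 0.69 for Fam174b and -0.35 to 0.33 for Gjb1. The median r of the pairs ran from 0.878 to 0.910 over the libraries and from -0.136 to 0.855 for the deviations.

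Counts of called genes varied more. Without 1 library they ran from 197 to 1159 for labelled knockout against aged control (565 in the fit reported), from 5 to 1039 for aged against young control (471) and from 11 to 31 for labelled knockout against young control (25). The highest of the first 2 ranges came without replicate 2 labelled knockout. The lowest came without replicate 1 labelled knockout and without young control replicate 1. Without a filter they were 146, 39 and 15, with a mean of 5 FPKM the last was 12, and in fits of the compared groups alone the first 2 were 149 and 716. Of the calls for aged against young control 29.9% were higher, against 54.8% after median-ratio and 43.3% after quantile scaling. Of 29 calls of single list genes, none reversed, 2 to 22 were lost without 1 library and 26 without a filter; the cause was not tested. Same-numbered libraries had correlations of deviations from -0.129 to 0.124 over the tested genes. Libraries of different groups and numbers had -0.213 to 0.173. Same-numbered libraries were thus not more alike, but whether the numbers pair the libraries cannot be told from these values. With the replicate number as a block, aged against young control gave 183 calls and 11 list gene calls were lost.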

Other observations

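Of the 6940 genes, 5 ran most nearly opposite to the mean profile of the 4 genes. Ctbp2, which encodes a transcriptional co-repressor, had r = -0.994 over the 9 libraries and stood at 12.58, 10.31 and 12.68 FPKM in libraries labelled knockout, 9.56, 9.07 and 9.36 FPKM in aged controls and 11.66, 12.39 and 11.91 FPKM in young controls. Replicate 2 labelled knockout was the library of its group nearest to the aged controls, which the choice of Ctbp2 by this r fixes in part. Pawr (-0.982), Sgms1, which encodes a sphingomyelin synthase (-0.977), the phosphodiesterase gene Pde8a (-0.976) and Tmem47 (-0.974) followed. Tmem47 stood at 10.07, 3.18 and 7.73 FPKM in libraries labelled knockout, 2.34, 2.41 and 3.22 FPKM in aged controls and 7.96, 8.56 and 7.16 FPKM in young controls.

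Within groups the genes most like the 4 were Cygb (r of deviations 0.991), Sectm1a (0.990), Meis3 (0.968), Clybl (0.965), Kif1a (0.963), Cyp2j9 (0.961), Dnase1l3 (0.958), Fcgr2b (0.957), Akr1b8 (0.957) and the ceramidase gene Acer2 (0.954). In some of them the group means had another order. Cyp2j9 averaged 5.65 FPKM in libraries labelled knockout, 6.93 FPKM in the aged controls and 7.70 FPKM in the young controls, and Acer2 averaged 30.5, 37.8 and 19.9 FPKM in that order. Without replicate 2 labelled knockout the r of deviations was 0.789 for Cygb, 0.677 for Sectm1a, 0.206 for Fcgr2b, -0.548 for Dnase1l3, -0.695 for Meis3 and -0.410 for Kif1a. The likeness of Fcgr2b, Dnase1l3, Meis3 and Kif1a thus rested on that library. Without it the 4 genes did not follow each other within groups (median r of deviations -0.136). Their mean profile then held no shared movement, so nothing is read from the values for Cygb and Sectm1a.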
